A study of Homo sapiens with 9 samples.

Results

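Cholesterol synthesis and its control by SREBP were followed through 31 genes, out of 58395 genes counted in the series. The members were taken by gene symbol from a list that holds 19 enzymes of the pathway, 5 genes of SREBP control, 2 genes of sterol transport and storage and 5 genes of the liver X receptor (LXR) and of cholesterol efflux. The files name genes by Ensembl identifier, and symbols came from GENCODE release 29. All 31 members passed the filter on low counts, as did 16761 genes in all.

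The cells were MDA-MB-231, a human triple-negative breast cancer line, and RNA was taken 96 h after reverse transfection of siRNA. In all, 3 groups of 3 libraries were sequenced: siNC, a nontargeting siRNA, and siZIP7_1 and siZIP7_2, siRNAs against ZIP7 from different suppliers. ZIP7 is the product of SLC39A7 and moves zinc out of the endoplasmic reticulum (ER). All groups were transfected and grown in full medium with serum, so each comparison is with transfected cells of 1 line. No label says whether the 3 libraries of a group came from separate cultures, and the p-values below measure only the spread between these libraries.

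Cholesterol is made from acetyl-CoA, first through mevalonate to farnesyl diphosphate, then through squalene and lanosterol. SREBF1 and SREBF2 encode the SREBP transcription factors, which sit in the ER membrane as precursors. SCAP carries them to the Golgi, where proteases release the active part, and the INSIG proteins hold SCAP back when sterols are plentiful. LXR, encoded by NR1H2 and NR1H3, is switched on by oxidised sterols and raises genes that remove cholesterol, such as ABCA1. In cells grown with serum, synthesis and efflux genes are known to be set in opposite directions by the sterol content of the cell.

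The promoters of the members are shown first, since a sterol regulatory element is the site by which SREBP reaches many of these genes. RefSeq promoters on GRCh38.p14, 250 bases before to 50 after the start, were found for 27 of the 31 members. ACAT2, FDFT1, SQLE and ABCG1 had none in the table. The core of the sterol regulatory element, TCACNCCA on either strand, was in 3 of the 36 member promoters (8.33%), beside 3.95% of 35116 promoters and 3.51% of those of genes past the low-count filter. These 3 lie before the starts of MSMO1, MVK and SREBF2, and the 30 bases around each core are shown with the core in capitals. The windows are chr4:165327502-165327531, chr12:109573588-109573617 and chr22:41832961-41832990, all on the plus strand, 156, 195 and 133 bases before the RefSeq start.
MSMO1: tctcactatccTCACTCCAtccgcggagcc
MVK: gttcgcagttcTCACCCCAgggcgggacac
SREBF2: atgacgcgccaTCACCCCAcgcaccgcttc

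The E-box CACGTG, which reads the same on both strands, was in 6 of 36 member promoters (16.7%), beside 7.26% of all promoters and 8.98% of those past the filter. It is shown in capitals for INSIG1 and ABCA1, the SREBP control gene and the efflux gene with the largest rise under siZIP7_2 in their lists, and for SC5D and SCAP. The windows are chr7:155297811-155297840 (plus strand), chr9:104928285-104928314 (minus strand), chr11:121292628-121292657 (plus strand) and chr3:47475982-47476011 (minus strand). Annotated exons overlap the windows of INSIG1, SC5D and SCAP, and not that of ABCA1.
INSIG1: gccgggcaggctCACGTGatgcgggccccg
ABCA1: gggccccggctcCACGTGctttctgctgag
SC5D: gcgcgcggcgccCACGTGaccgcggagagc
SCAP: cgccgctgggcgCACGTGcggagggcggcg

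The NF-Y box CCAAT was in 21 of 36 member promoters (58.3%), beside 34.6% of all promoters. Among the enzymes it was in 15 of 21 promoters (71.4%). The SP1 box GGGCGG was in 31 of 36 (86.1%), beside 45.0% of all promoters and 64.1% of those of genes past the filter. In the MVK window a GGGCGG directly follows the core. The DR4 element, the usual LXR site, was searched by a fixed pattern of letters. Matches to that pattern were in none of the 36 windows and in 0.0854% of all promoters. A site with letters outside the pattern would be missed. The search therefore cannot show whether a member such as ABCA1 has an LXR site in its window. Some genes have several promoters that overlap, so the windows are not independent. A match is a description of the letters and was not tested as a site.

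Each library held 24153785 to 30454419 counts on genes. SLC39A7, the target, is given as CPM (counts scaled to 1e+06 per library, with TMM factors). It lay at 321, 343 and 322 CPM in the siNC libraries, at 35.4, 32.9 and 38.6 in those of siZIP7_1 and at 20.5, 19.5 and 17.6 in those of siZIP7_2. The log2 fold change was -3.20 and -4.10, and all 6 knockdown libraries go with their labels. Of the markers of the line, VIM, CD44 and AXL were detected at 438 CPM or more in every library. With siZIP7_1 and siZIP7_2, VIM changed by -1.04 and -0.93 on the log2 scale, CD44 by -0.81 and 1.14 and AXL by -0.14 and -0.93. ESR1, PGR and CDH1 lay at 4.52 CPM or less, PGR at 0 with siNC. CDH1 was at 0.363 to 0.605 CPM with siNC, 3.99 to 4.52 with siZIP7_1 and 0.790 to 1.28 with siZIP7_2. EPCAM was at 3.80 to 10.3 and ERBB2 at 56.6 to 91.5 CPM, so ERBB2 was low rather than absent. Reads outside annotated genes made up 7.43% to 8.28% of the counts with siNC, 7.80% to 9.62% with siZIP7_1 and 9.99% to 11.5% with siZIP7_2, and the part of this share in the results was not tested. In bulk RNA, fewer cells of a kind and less RNA per cell cannot be told apart.

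Of the 19 enzymes of cholesterol synthesis, 15 were higher after ZIP7 knockdown with siZIP7_1 and none was lower, beside 34.8% and 35.9% of all genes. With siZIP7_2, 11 were higher and 5 lower, beside 38.5% and 39.3% of all genes. INSIG1, the feedback gene, ABCA1, a cholesterol pump, and MYLIP, a ubiquitin ligase raised by LXR, were higher with siZIP7_2. With siZIP7_1, INSIG1 was also higher, by 0.37 on the log2 scale, ABCA1 was lower by 0.30 and MYLIP did not pass the threshold. HMGCS1 rose 4.21-fold with siZIP7_1 and 1.86-fold with siZIP7_2, and STARD4 rose 2.41-fold and 2.25-fold. NR1H3 fell with both siRNAs, 1.58-fold and 3.81-fold.

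The test was edgeR's quasi-likelihood test over all 16761 genes, with p adjusted by Benjamini-Hochberg and called under 0.05. With siZIP7_1 against siNC, 23 of 31 members passed, while 70.7% of all genes did. Of these, 20 members (64.5%) were higher, beside 34.8% of all genes, and 3 members (9.68%) were lower, beside 35.9%. With siZIP7_2 against siNC, 27 members passed, beside 77.8% of all genes. There 18 (58.1%) were higher, beside 38.5%, and 9 were lower, beside 39.3%. In both comparisons the share of members past the threshold in either direction is near that of all genes, and is no result about the members.

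A second test asked for a change beyond 1.5-fold. With siZIP7_1 it was passed by 6 members (19.4%), beside 27.7% of all genes. All 6 were higher (all genes, 13.9%) and none was lower (all genes, 13.8%). With siZIP7_2, 15 members (48.4%) passed, beside 38.3%, with 10 higher (all genes, 20.0%) and 5 lower (all genes, 18.3%). The median log2 fold change of the 31 members was 0.35 with siZIP7_1 and 0.55 with siZIP7_2, while the median of all genes was -0.007 and -0.002.

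The siRNAs were also compared with each other, since both target ZIP7. Of the 31 members, 25 differed between siZIP7_2 and siZIP7_1 (80.6%), beside 78.7% of all genes. With siZIP7_2, 10 members were higher than with siZIP7_1 (all genes, 38.1%) and 15 were lower (all genes, 40.6%). Past 1.5-fold there were 12 members (38.7%), beside 40.6%. Of these, INSIG1, ABCA1 and MYLIP were higher with siZIP7_2 (9.68%, beside 20.8%), and 9 were lower (all genes, 19.8%). Both knockdown comparisons use the same 3 siNC libraries, so their values are given side by side and their likeness is no separate result.

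**Figure D1:**
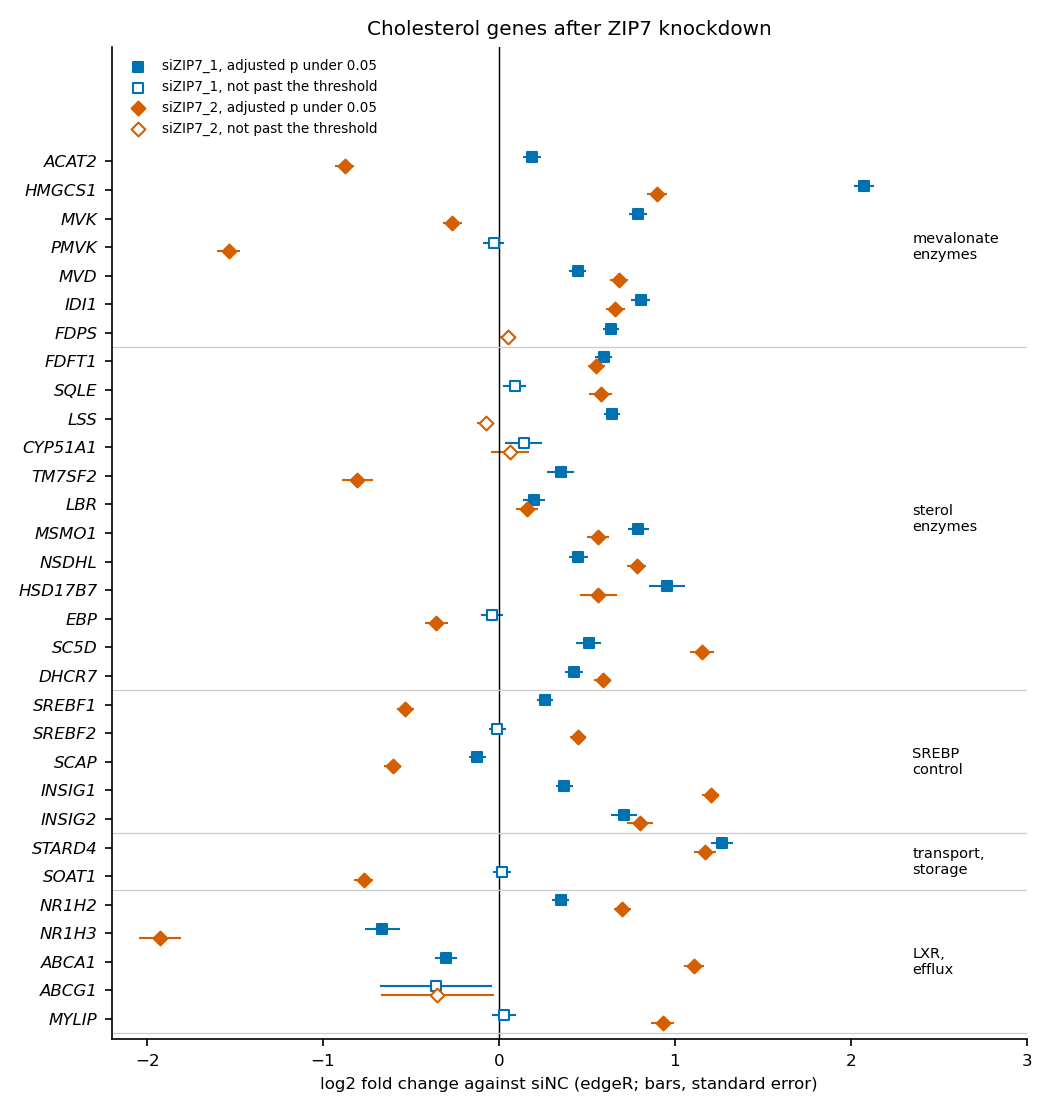
The log2 fold change against siNC of each of the 31 members (horizontal axis) with siZIP7_1 (squares) and siZIP7_2 (diamonds), with bars for the standard error and filled symbols where the adjusted p was under 0.05. HMGCS1 lies farthest right with siZIP7_1 at 2.07, NR1H3 farthest left with siZIP7_2 at -1.93, and no enzyme has a filled square left of 0.

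The first 7 enzymes lead from acetyl-CoA to farnesyl diphosphate. With siZIP7_1, 6 of the 7 rose and none fell (all genes, 34.8% and 35.9%), with a median log2 fold change of 0.64. With siZIP7_2, 3 rose and 3 fell, close to the 38.5% and 39.3% of all genes, with a median of 0.05. The siRNAs differed in all 7, and 6 of them were lower with siZIP7_2 than with siZIP7_1 (all genes, 40.6%). Of the 6, IDI1 lost that call with DESeq2, with RLE or upper-quartile scaling, with at least 10 counts in every library and without siZIP7_1 replicate 2 or siZIP7_2 replicate 2 (-0.0624 to -0.124).

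HMGCS1, which makes HMG-CoA for the pathway, was at 60.2, 54.0 and 66.2 CPM in the siNC libraries. With siZIP7_1 it was at 242, 264 and 255 CPM, and with siZIP7_2 at 115, 109 and 113. The 3 groups do not overlap, and siZIP7_1 is the highest. The log2 fold change was 2.07 (SE 0.058, adjusted p = 7.56e-23 by edgeR) and 0.90 (SE 0.058, adjusted p = 2.36e-14). The difference of -1.18 between the siRNAs had an adjusted p of 9.43e-18 by the same test.

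The kinases that follow went apart. MVK, mevalonate kinase, was at 44.0, 43.6 and 42.0 CPM with siNC, 75.9, 72.9 and 75.1 with siZIP7_1 and 37.6, 35.4 and 34.9 with siZIP7_2. Its groups do not overlap: it rose 1.73-fold with siZIP7_1 and fell by 0.26 on the log2 scale with siZIP7_2 (edgeR, adjusted p = 3.51e-14 and 6.70e-05). PMVK, phosphomevalonate kinase, was at 43.1, 44.2 and 44.3 CPM with siNC, 40.4, 43.3 and 45.1 with siZIP7_1 and 16.0, 14.2 and 15.3 with siZIP7_2. The siNC and siZIP7_1 libraries overlap (log2 fold change -0.03, adjusted p = 0.65), and all 3 siZIP7_2 libraries lie far below them. PMVK was 2.90-fold lower with siZIP7_2 than with siNC (edgeR, adjusted p = 1.38e-18), the largest fall among the 19 enzymes.

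ACAT2, the thiolase that joins the first acetyl-CoA units, was at 86.3 to 91.6 CPM with siNC, 98.7 to 105 with siZIP7_1 and 46.0 to 52.4 with siZIP7_2. It rose by 0.19 and fell by 0.88 on the log2 scale. Of the exonic bases of ACAT2, 52.3% are shared with SOD2-OT1 on the other strand, and without a stated strand setting their reads cannot be told apart. MVD, the decarboxylase after the kinases, rose with both siRNAs (0.45 and 0.68), and so did IDI1, the isomerase of the isoprene units (0.81 and 0.66). IDI1 went from 69.7 to 80.4 CPM with siNC to 125 to 140 with siZIP7_1 and 115 to 121 with siZIP7_2. FDPS, farnesyl diphosphate synthase, rose from 151 to 161 CPM with siNC to 240 to 252 with siZIP7_1. Its siZIP7_2 libraries, at 159 to 169 CPM, overlap those of siNC (log2 fold change 0.05, edgeR adjusted p = 0.309). FDPS and HSD17B7 have annotated pseudogene copies, so their counts depend on how reads that fit a copy were assigned.

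**Figure D2:**
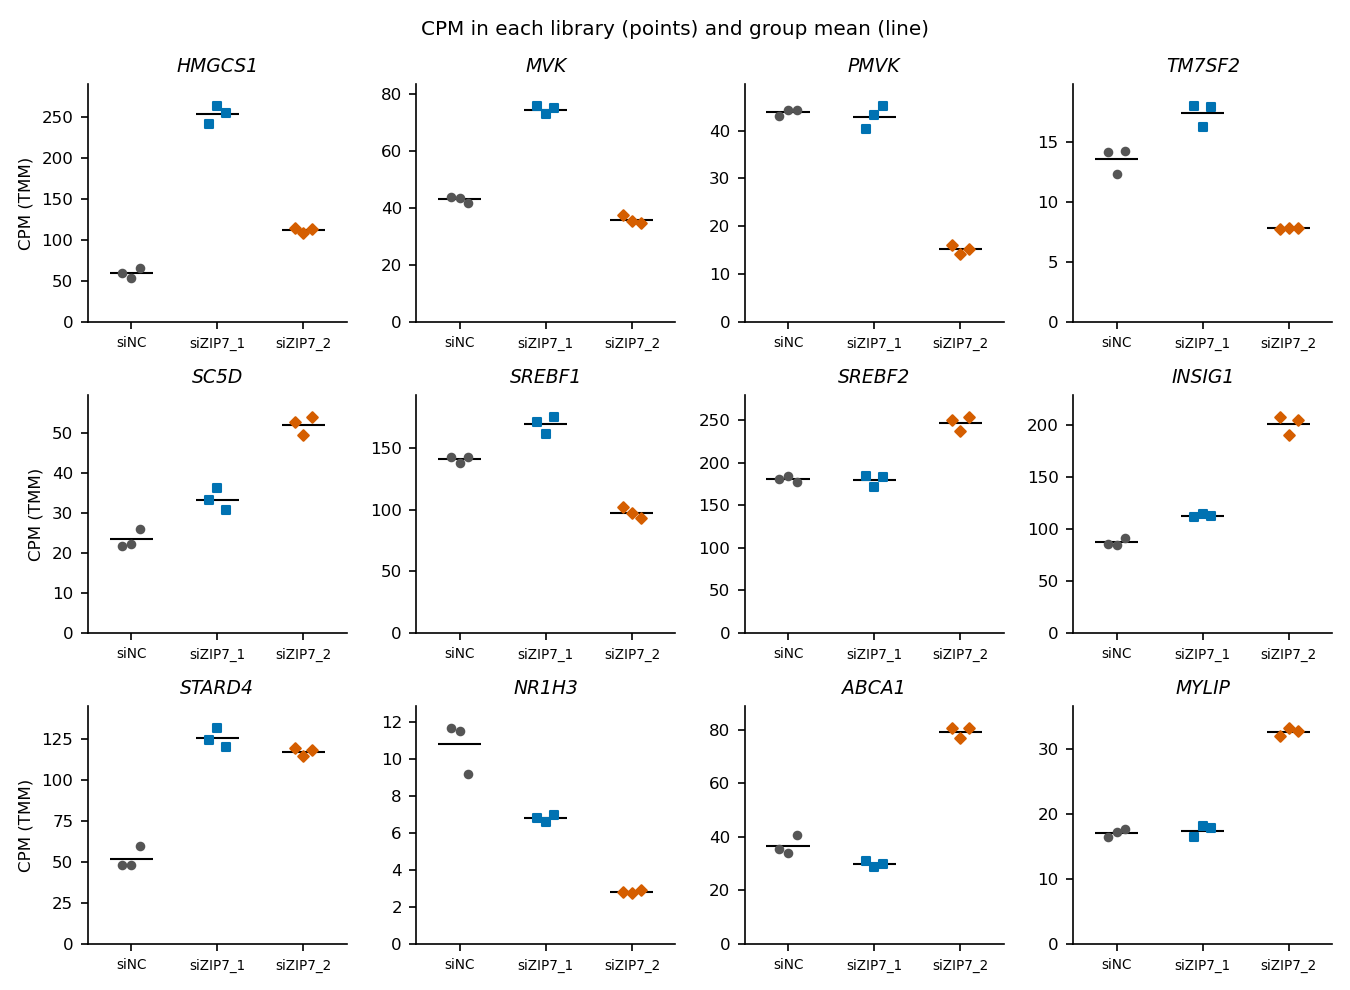
CPM in each library (points) and the group mean (line) for 12 members, with a linear axis from 0 in each panel. PMVK and TM7SF2 are lowest with siZIP7_2, HMGCS1 and MVK are highest with siZIP7_1, and ABCA1, MYLIP and INSIG1 are highest with siZIP7_2.

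The other 12 enzymes lead from farnesyl diphosphate to cholesterol. With siZIP7_1, 9 rose and none fell (all genes, 34.8% and 35.9%), with a median log2 fold change of 0.44. With siZIP7_2, 8 rose and 2 fell (all genes, 38.5% and 39.3%), with a median of 0.56. Between the siRNAs, 4 were higher and 5 lower with siZIP7_2 (all genes, 38.1% and 40.6%).

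FDFT1 is squalene synthase, the first enzyme given over to sterols. It was at 90.01 to 98.06 CPM with siNC, 139 to 145 with siZIP7_1 and 132 to 142 with siZIP7_2, and rose by 0.60 and 0.55 on the log2 scale. The values for both siRNAs overlap each other (difference -0.04, edgeR adjusted p = 0.418). SQLE, squalene epoxidase, was at 19.0, 19.2 and 20.8 CPM with siNC, 21.6, 21.1 and 20.1 with siZIP7_1 and 30.3, 27.9 and 30.1 with siZIP7_2. Here siNC and siZIP7_1 overlap (adjusted p = 0.244), and siZIP7_2 is higher than both by 0.58 and 0.49 (edgeR, adjusted p = 5.41e-09 and 8.06e-08). LSS, which closes the rings to lanosterol, had the other pattern. It was at 96.2 to 99.8 CPM with siNC, 149 to 155 with siZIP7_1 and 89.6 to 96.5 with siZIP7_2, a log2 fold change of 0.64 and -0.08 (edgeR, adjusted p = 3.35e-13 and 0.146).

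CYP51A1, the lanosterol demethylase, was at 6.73 to 7.30 CPM with siNC, 7.11 to 8.47 with siZIP7_1 and 6.75 to 8.54 with siZIP7_2, and the groups overlap. It was the one enzyme that passed the threshold in neither knockdown comparison (0.14 and 0.06). Of its exonic bases, 83.2% are also annotated as AC000120.2 on the same strand, and reads in the shared bases cannot be assigned to 1 gene.

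TM7SF2 and LBR both encode sterol reductases for the same double bond, and LBR also binds the nuclear lamina. TM7SF2 was at 14.2, 12.4 and 14.3 CPM with siNC, 18.0, 16.3 and 17.9 with siZIP7_1 and 7.80, 7.83 and 7.80 with siZIP7_2. The groups do not overlap, and TM7SF2 rose by 0.35 (edgeR, adjusted p = 0.000214) and fell by 0.80 (adjusted p = 1.83e-09). LBR was the more abundant, at 30.3 CPM per kb of exon against 3.995 for TM7SF2 with siNC. It was at 148 to 165 CPM with siNC, 171 to 204 with siZIP7_1 and 162 to 188 with siZIP7_2. LBR rose by 0.20 and 0.16, and both calls were lost when siNC replicate 1 was left out (0.14 and 0.10). The first was also lost without siZIP7_1 replicate 2 (0.11), and the second without siZIP7_2 replicate 2 (0.14) or replicate 3 (0.13).

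The demethylation enzymes MSMO1, NSDHL and HSD17B7 rose with both siRNAs. MSMO1 went from 62.7 to 75.7 CPM with siNC to 113 to 121 and 91.8 to 104, log2 fold changes of 0.79 and 0.56. NSDHL went from 37.6 to 38.2 CPM to 49.7 to 53.1 and 61.7 to 68.7 (0.45 and 0.78). HSD17B7 went from 4.64 to 5.77 CPM to 9.51 to 10.03 and 7.11 to 7.84 (0.96 and 0.57). In each of the 3 genes the siRNA groups lie above siNC with no overlap, and NSDHL alone is higher with siZIP7_2.

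The last steps are those of EBP, SC5D and DHCR7. SC5D, a sterol desaturase, was at 21.8, 22.3 and 26.1 CPM with siNC, 33.2, 36.2 and 30.7 with siZIP7_1 and 52.9, 49.5 and 54.1 with siZIP7_2. It rose by 0.51 and 1.15 with no overlap between groups, the latter being the largest rise of an enzyme with siZIP7_2 (edgeR, adjusted p = 2.87e-07 and 5.32e-15). DHCR7, a reductase of the final step, rose by 0.43 and 0.59. EBP, a sterol isomerase, was at 29.6 to 33.2 CPM with siNC and 29.03 to 31.19 with siZIP7_1, which overlap. With siZIP7_2 it was at 22.7 to 25.6 and fell by 0.36.

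The 5 SREBP control genes are the transcription factors, their escort and its anchors. With siZIP7_1, 3 rose and 1 fell (all genes, 34.8% and 35.9%), and with siZIP7_2, 3 rose and 2 fell (all genes, 38.5% and 39.3%). SREBF1 was at 143, 138 and 143 CPM with siNC, 171, 162 and 176 with siZIP7_1 and 102, 97.6 and 93.6 with siZIP7_2. It rose by 0.26 and fell by 0.53 (edgeR, adjusted p = 1.56e-05 and 4.49e-11), with no overlap. SREBF2 was at 181, 184 and 178 CPM with siNC, 184, 172 and 183 with siZIP7_1 and 250, 237 and 254 with siZIP7_2. The siNC and siZIP7_1 libraries overlap (log2 fold change -0.01, adjusted p = 0.874), and SREBF2 rose by 0.45 with siZIP7_2 (edgeR, adjusted p = 7.01e-10). These are levels of mRNA, and the files do not measure the cleaved proteins.

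SCAP was at 96.65, 96.15 and 89.96 CPM with siNC, 89.5, 84.7 and 85.6 with siZIP7_1 and 64.5, 60.7 and 60.8 with siZIP7_2. It fell by 0.60 with siZIP7_2 (edgeR, adjusted p = 6.45e-12). Its fall by 0.12 with siZIP7_1 (edgeR, adjusted p = 0.0274) was lost without siNC replicate 1 (-0.11), siNC replicate 2 (-0.10), siZIP7_1 replicate 2 (-0.11) or siZIP7_1 replicate 3 (-0.11).

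INSIG1, itself a target of SREBP, was at 85.4, 84.5 and 90.8 CPM with siNC, 111, 114 and 113 with siZIP7_1 and 207, 190 and 204 with siZIP7_2. The groups do not overlap and rise in that order, by 0.37 and 1.21 against siNC (edgeR, adjusted p = 8.32e-08 and 3.91e-19) and by 0.83 between the siRNAs (adjusted p = 1.01e-15). INSIG2 was at 19.1 to 22.4 CPM with siNC, 30.7 to 38.3 with siZIP7_1 and 35.1 to 37.9 with siZIP7_2. It rose by 0.71 and 0.80, and the siRNA groups overlap (difference 0.09, edgeR adjusted p = 0.242), though the difference passed without siZIP7_1 replicate 2 (0.17) or with upper-quartile scaling (0.171). HMGCS1 and INSIG1 thus lay in opposite order between the siRNAs: HMGCS1 was 2.26-fold lower and INSIG1 1.78-fold higher with siZIP7_2 than with siZIP7_1.

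STARD4, which carries sterols between membranes, was at 48.3, 47.8 and 59.4 CPM with siNC, 124, 131 and 120 with siZIP7_1 and 119, 114 and 118 with siZIP7_2. Both siRNA groups lie above siNC, by 1.27 and 1.17 (edgeR, adjusted p = 4.56e-17 and 2.60e-16), and do not differ past the threshold (difference -0.10, adjusted p = 0.135), except with no low-count filter (-0.144). SOAT1, which esterifies cholesterol for storage, was at 156 to 171 CPM with siNC and 160 to 181 with siZIP7_1, which overlap. With siZIP7_2 it was at 92.7 to 101 and fell by 0.77 (edgeR, adjusted p = 1.53e-13).

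The last 5 members are LXR genes and genes raised by LXR. With siZIP7_1, 1 rose and 2 fell (all genes, 34.8% and 35.9%), and with siZIP7_2, 3 rose and 1 fell (all genes, 38.5% and 39.3%). NR1H2, which encodes the LXR form made in most tissues, was at 87.9 to 99.2 CPM with siNC, 118 to 122 with siZIP7_1 and 147 to 158 with siZIP7_2, and rose by 0.35 and 0.70. NR1H3, which encodes the other form, was at 11.7, 11.5 and 9.18 CPM with siNC, 6.81, 6.59 and 6.96 with siZIP7_1 and 2.79, 2.76 and 2.92 with siZIP7_2. The groups do not overlap, and NR1H3 fell by 0.66 and 1.93 (edgeR, adjusted p = 1.16e-06 and 7.58e-15). The receptor genes thus moved in opposite directions with each siRNA.

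ABCA1, the pump that loads cholesterol onto lipoproteins, was at 35.6, 34.0 and 40.5 CPM with siNC, 30.96, 28.65 and 29.87 with siZIP7_1 and 80.6, 76.8 and 80.6 with siZIP7_2. It fell by 0.30 with siZIP7_1 and rose by 1.11 with siZIP7_2 (edgeR, adjusted p = 8.74e-05 and 2.44e-16), with no overlap. The difference of 1.41 between the siRNAs was the largest among the members in the direction of siZIP7_2. MYLIP, a ubiquitin ligase for lipoprotein receptors, was at 16.4, 17.3 and 17.8 CPM with siNC, 16.5, 18.1 and 17.8 with siZIP7_1 and 32.0, 33.3 and 32.8 with siZIP7_2. The siNC and siZIP7_1 libraries overlap (log2 fold change 0.03, adjusted p = 0.725), and siZIP7_2 is higher by 0.93 (edgeR, adjusted p = 1.66e-13). ABCG1, another pump, was at 0.377 to 0.801 CPM over all 9 libraries, and no difference was detectable at this depth (-0.36 with SE 0.32, and -0.35 with SE 0.32).

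The synthesis enzymes were then set against the LXR and efflux genes library by library. For each gene, log2(CPM + 0.5) was taken relative to its siNC mean and averaged over the 19 enzymes and over the 5 LXR and efflux genes. The enzymes stood at 0.501, 0.539 and 0.526 in the siZIP7_1 libraries, and those of siZIP7_2 had 0.186, 0.131 and 0.220, a mean of 0.522 ± 0.0193 and 0.179 ± 0.0449 (SD, n = 3). The LXR and efflux genes stood at -0.0864, -0.185 and -0.174 in the siZIP7_1 libraries, and those of siZIP7_2 had 0.192, 0.113 and 0.160, a mean of -0.148 ± 0.0540 and 0.155 ± 0.0402 (SD, n = 3). The siNC libraries lay between -0.0206 and 0.0230 on both scales. With siZIP7_1 the LXR and efflux mean joins rises and falls. NR1H2 and MYLIP changed by 0.35 and 0.03 on the log2 scale, and ABCA1, ABCG1 and NR1H3 by -0.30, -0.36 and -0.66. Of these, MYLIP and ABCG1 did not pass the threshold. With siZIP7_2 both means join moves in opposite directions. Of the enzymes, 11 were higher and 5 lower (all genes, 38.5% and 39.3%). The median log2 fold change of the 19 enzymes was 0.554, beside 0.451 with siZIP7_1, so median and mean order the siRNAs differently. Of the LXR and efflux genes, NR1H3 changed by -1.93 on the log2 scale and ABCG1 by -0.35. NR1H2, ABCA1 and MYLIP changed by 0.70, 1.11 and 0.93. Synthesis minus efflux was 0.670 ± 0.0729 with siZIP7_1 and 0.024 ± 0.0336 with siZIP7_2 (SD, n = 3). The latter lies within the siNC spread of -0.0347 to 0.0212 in 2 of 3 libraries. With siZIP7_2 it also turned to -0.0529 with a pseudocount of 2 and to -0.0617 without genes under 5 CPM. The score is a description and carries no test.

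**Figure D3:**
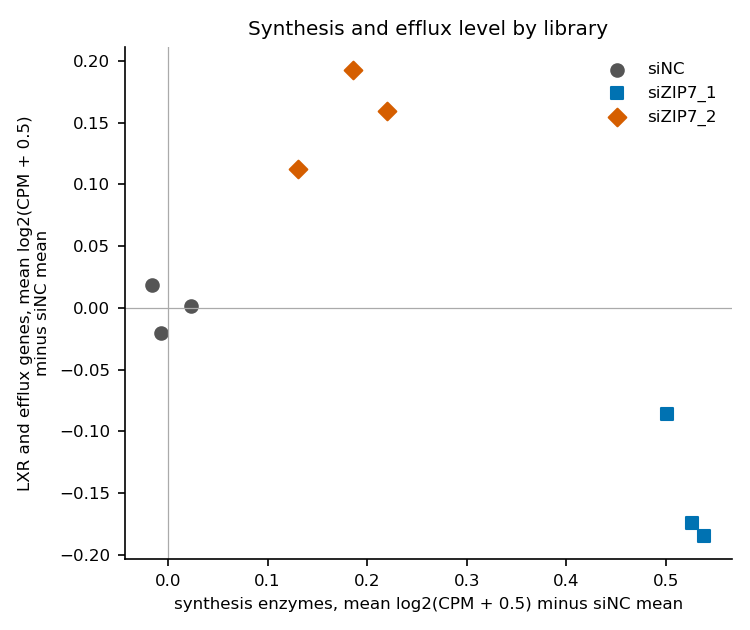
Each of the 9 libraries by the mean log2(CPM + 0.5) relative to siNC of the 19 synthesis enzymes (horizontal) and of the 5 LXR and efflux genes (vertical). The siZIP7_1 libraries sit at the lower right, between 0.501 and 0.539 for synthesis and below 0 for efflux, and the siZIP7_2 libraries at the upper left of them, above 0 on both axes.

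Levels between genes were compared per kb of exon. With siNC, FDPS stood highest at 42.3 ± 1.55 CPM per kb (SD, n = 3), followed by PMVK at 34.3 ± 0.554 and LBR at 30.3 ± 1.89. The lowest enzymes were HSD17B7 at 1.06 ± 0.132 and CYP51A1 at 1.98 ± 0.0871 CPM per kb. The CYP51A1 value was divided by all its exonic bases, of which 83.2% are shared with AC000120.2. Its place in this order is therefore uncertain. SREBF2 (23.9 ± 0.421) stood above SREBF1 (17.6 ± 0.361), and INSIG1 (23.8 ± 0.941) above INSIG2 (5.30 ± 0.427). NR1H3 stood at 2.38 ± 0.306 CPM per kb, below the mean of NR1H2. ABCG1 was the lowest of all members at 0.112 ± 0.0165 CPM per kb. The order changed with knockdown: HMGCS1 stood at 12.8 ± 1.30 with siNC and at 53.9 ± 2.31 CPM per kb with siZIP7_1, second to FDPS at 65.8 ± 1.84. With siZIP7_2, INSIG1 stood highest at 54.9 ± 2.47 CPM per kb.

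**Figure D4:**
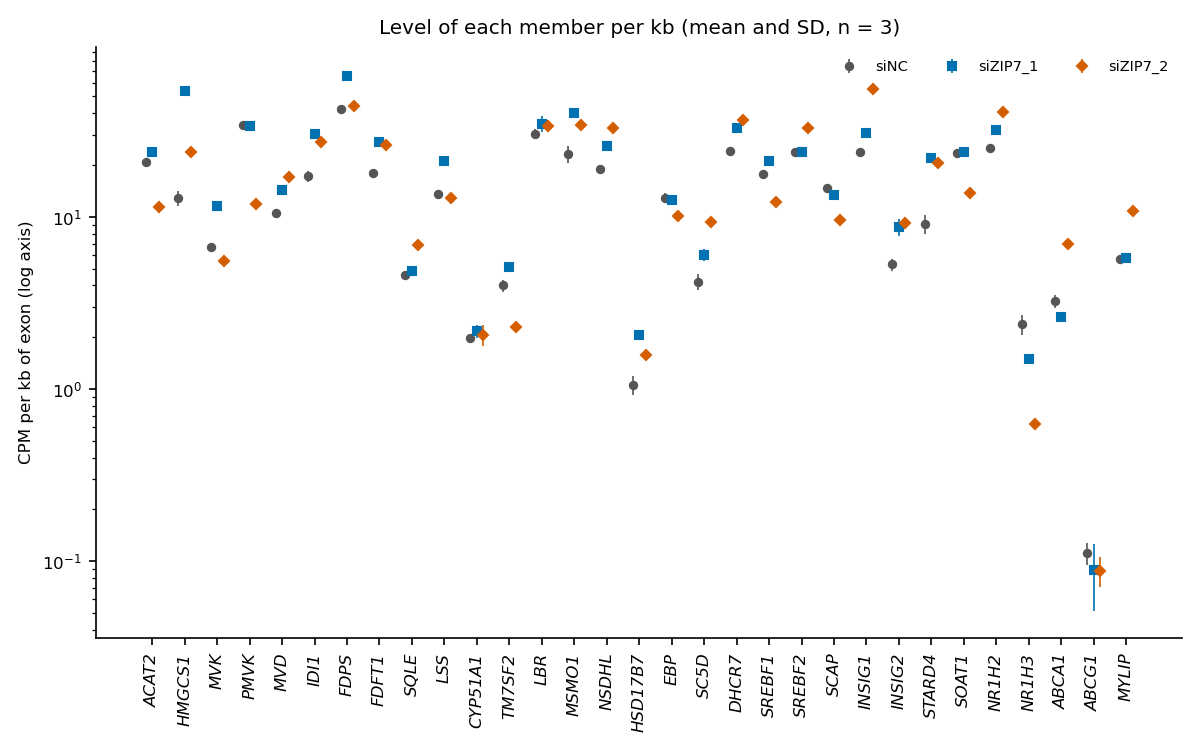
The level of each member in CPM per kb of exon on a log axis, as mean and SD of 3 libraries with siNC (circles), siZIP7_1 (squares) and siZIP7_2 (diamonds). FDPS is the highest with siNC at 42.3 and ABCG1 the lowest at 0.112 CPM per kb.

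The machinery that moves and cuts SREBP, or that degrades the synthesis enzymes in the ER, was followed in 24 further genes. With siZIP7_1, 9 rose and 10 fell, near the 34.8% and 35.9% of all genes, with a median log2 fold change of -0.01. With siZIP7_2, 9 rose and 13 fell (all genes, 38.5% and 39.3%), with a median of -0.19. MBTPS2, the protease that makes the second cut in SREBP, went from 22.6 to 26.0 CPM with siNC to 16.2 to 18.7 and 9.54 to 10.1, a fall by 0.51 and 1.33. SPRING1, a cofactor of the first cut, rose by 0.86 and 0.48. Of the coat proteins that carry SCAP out of the ER, SEC23B rose by 0.95 and 0.16, the latter not past the threshold with no low-count filter (0.112), and SEC31A rose by 0.14 and fell by 1.05. ERLIN1, a scaffold of ER degradation, fell by 0.64 with each siRNA. RNF139, an ER ubiquitin ligase, rose by 0.51 and 0.33, and NPLOC4, which helps to pull proteins from the ER, fell by 1.14 with siZIP7_1 and rose by 0.15 with siZIP7_2, where the call was lost with no low-count filter (0.0976).

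Fatty acid genes known as targets of SREBP-1, together with TMEM97, made a list of 14. With siZIP7_1, 5 rose and 4 fell (all genes, 34.8% and 35.9%), with a median of -0.02. With siZIP7_2, 3 rose and 8 fell (all genes, 38.5% and 39.3%), with a median of -0.13. ACACA, which commits acetyl-CoA to fatty acids, rose by 0.18 with siZIP7_1 and fell by 1.12 with siZIP7_2. ME1, a source of NADPH, was at 31.02 to 34.21 CPM with siNC, 15.0 to 16.3 with siZIP7_1 and 67.8 to 88.5 with siZIP7_2, a change of -1.09 and 1.24. TMEM97, a sterol-responsive membrane protein, fell by 0.32 and 0.88.

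Of 13 other genes tied to LXR, 10 passed the filter on low counts. With siZIP7_1, 4 rose and 4 fell, near the 34.8% and 35.9% of all genes, with a median of 0.02. With siZIP7_2, 2 rose and 4 fell (all genes, 38.5% and 39.3%), with a median of -0.11. SMPDL3A, a phosphodiesterase, rose by 1.15 and 0.55, and NR1D1, a nuclear receptor of the clock, rose by 0.28 and 1.23.

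Genes that handle cholesterol between organelles made a list of 21, of which 20 passed the filter. With siZIP7_1, 8 rose and 5 fell (all genes, 34.8% and 35.9%), with a median of 0.07. With siZIP7_2, 8 rose and 8 fell, near the 38.5% and 39.3% of all genes, with a median of -0.05. NPC2, the lysosomal sterol carrier, was at 90.8 to 92.2 CPM with siNC, 240 to 246 with siZIP7_1 and 114 to 127 with siZIP7_2, and rose by 1.40 and 0.41. STARD3, which binds sterols at the late endosome, rose by 0.77 and 0.76, and OSBPL2, a lipid transfer protein, by 0.86 and 0.83. NCEH1, a hydrolase of cholesterol esters, was at 376 to 393 CPM with siNC, 77.9 to 86.1 with siZIP7_1 and 301 to 312 with siZIP7_2. It fell by 2.26 and 0.34, the largest fall with siZIP7_1 in this list. CAV1, the coat of caveolae, fell by 0.26 and 1.42, and SCARB1, a lipoprotein receptor, by 0.45 and 0.46. GRAMD1B, which takes plasma membrane cholesterol to the ER, was at 3.17 to 3.63 CPM with siNC and fell by 1.88 with siZIP7_1 but rose by 1.06 with siZIP7_2. CYP27A1, which makes an oxysterol, fell by 0.56 and rose by 1.52.

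The branches of the mevalonate pathway that lead to dolichol, ubiquinone and protein prenylation made a list of 17. With siZIP7_1, 10 rose and 6 fell (all genes, 34.8% and 35.9%), with a median of 0.17. With siZIP7_2, 1 rose and 9 fell (all genes, 38.5% and 39.3%), with a median of -0.22. RCE1, a protease of prenylated proteins, rose by 0.65 and 0.32, and was the 1 gene of the list higher with siZIP7_2. ZMPSTE24, a protease that trims prenylated lamin, was at 133 to 163 CPM with siNC, 40.1 to 44.4 with siZIP7_1 and 97.6 to 107 with siZIP7_2, and fell by 1.86 and 0.58. PDSS1, which builds the tail of ubiquinone, fell by 0.71 and 0.61. FNTB, a farnesyltransferase subunit that shares 42.1% of its exonic bases with CHURC1-FNTB, fell by 0.47 and 1.13. RABGGTA, a subunit of the enzyme that prenylates Rab proteins, rose by 0.31 and fell by 0.74, and DOLK, dolichol kinase, rose by 0.50 and fell by 0.46.

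**Figure D5:**
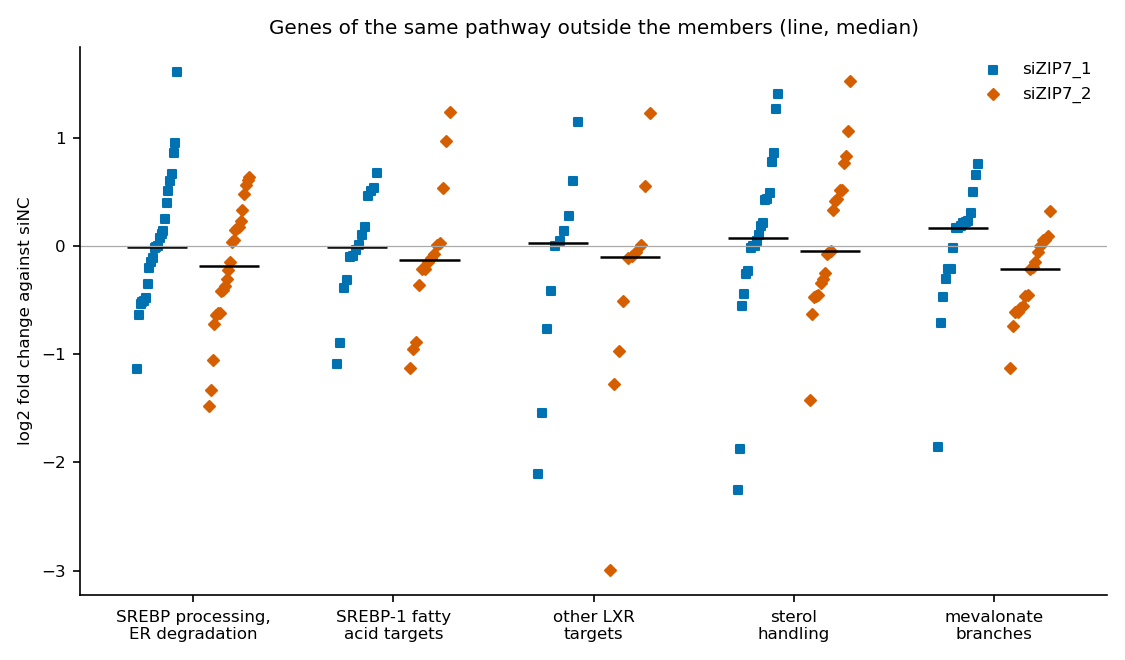
The log2 fold change against siNC of each gene in 5 lists of the same pathway outside the 31 members, with siZIP7_1 (squares) and siZIP7_2 (diamonds) and a line at each median. The medians lie between -0.22 and 0.17. None reaches the median of the 19 synthesis enzymes, which was 0.451 with siZIP7_1 and 0.554 with siZIP7_2.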

How the data were processed

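RNA-seq of MDA-MB-231 cells gave 9 libraries in 3 groups of 3 (siNC, siZIP7_1, siZIP7_2), which were grouped by the treatment in the labels. The authors sequenced single reads and deposited whole-number counts per Ensembl gene, with no normalization. The submitters' processing notes name Trim Galore 0.4.1, FastQC 0.11.2, STAR, HTSeq 0.6.1 and DESeq2 1.16.1. The genome build and the strand setting are not given in the sources used here. Summary lines that name no gene were left out of library sizes. They held 7.434% to 11.468% of counts outside genes and 2.665% to 2.909% ambiguous counts per library. The line for reads that aligned to several places held 0 in every library, which does not show how such reads were treated.

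Of 58395 identifiers, 58275 were in GENCODE release 29. Counts were fitted in R 4.3.3 with edgeR 4.0.16 (filterByExpr, TMM, glmQLFit and glmQLFTest), in 1 fit of all 9 libraries, which share 1 estimate of the spread (6 residual degrees of freedom, biological coefficient of variation 4.504%). P-values were adjusted by Benjamini-Hochberg over the 16761 genes kept, with a threshold of 0.05. A change beyond 1.5-fold was tested by glmTreat. CPM are counts scaled to 1e+06 per library, with TMM factors, and a library of this depth gives 3 counts at 0.0941 to 0.129 CPM, counting error only. Fold changes are those of the fit. Each SE is the absolute log2 fold change divided by the square root of the F statistic of its test. Exonic length is the union of annotated exons. The scripts were tested on simulated data. The simulated counts had 200 genes changed, in siZIP7_1 only, far fewer than were called here. That run does not test the fit where most genes change. Alternatives were DESeq2 1.42.0, RLE and upper-quartile scaling, other low-count filters, a fit to the 2 groups compared, a replicate block, other fold sizes and pseudocounts, and leaving out each library.

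All 31 members are named. From each further list the genes past the threshold with both siRNAs and with a mean of at least 1 CPM were named, at most 3 per direction by mean log2 fold change, and at most 2 in opposite directions. Some genes that this rule or the marker list gives are not reported here. The members and lists were chosen with earlier results of these data known. No set test was run.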

Additional observations from a re-analysis of the deposited data

Results flagged for a closer look

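Of the 31 members, 25 were flagged because the log2 fold change differed between siZIP7_2 and siZIP7_1 by the test of that difference itself (edgeR, siZIP7_2 against siZIP7_1, adjusted p under 0.05), beside 78.7% of all genes. Values below are siZIP7_2 minus siZIP7_1 on the log2 scale. Among enzymes of the mevalonate part the difference was -1.065 for ACAT2, -1.176 for HMGCS1, -1.054 for MVK, -1.506 for PMVK, 0.234 for MVD, -0.144 for IDI1 and -0.584 for FDPS. The call of IDI1 was lost without siZIP7_1 replicate 2 (-0.0981) or siZIP7_2 replicate 2 (-0.122). Among sterol enzymes it was 0.489 for SQLE, -0.719 for LSS, -1.156 for TM7SF2, -0.23 for MSMO1, 0.332 for NSDHL, -0.391 for HSD17B7, -0.317 for EBP, 0.643 for SC5D and 0.162 for DHCR7. Among SREBP control genes it was -0.795 for SREBF1, 0.458 for SREBF2, -0.482 for SCAP and 0.833 for INSIG1. It was -0.788 for SOAT1, and 0.351 for NR1H2, -1.265 for NR1H3, 1.411 for ABCA1 and 0.903 for MYLIP.

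The named genes of the further lists that moved in opposite directions were flagged by the same test. The difference was 1.286 for NPLOC4 and -1.186 for SEC31A, 2.329 for ME1 and -1.302 for ACACA, 2.939 for GRAMD1B and 2.077 for CYP27A1, and -1.042 for RABGGTA and -0.959 for DOLK.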

How the results depend on the processing

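Of 316 summary values recomputed under the alternatives, 300 kept their direction and stayed within 1.5 times or 1 SD of the reported value. The count of SREBP control genes lower with siZIP7_1, which is SCAP, went from 1 to 0 with at least 10 counts in every library, with no low-count filter and with upper-quartile scaling, and was 0 to 1 when a library was left out. Members past 1.5-fold with siZIP7_1, with siZIP7_2 and between the siRNAs became 17, 25 and 20 at 1.2-fold and 2, 5 and 5 at 2-fold. Synthesis minus efflux with siZIP7_2 was 0.0679 with a pseudocount of 0.1, -0.0529 with a pseudocount of 2 and -0.0617 without genes under 5 CPM. When a library was left out it was 0.006 to 0.0393, and with siZIP7_1 it was 0.6436 to 0.7118. Upper-quartile scaling raised the median of all genes by 0.1063 with siZIP7_2, and the values below were near 0 before it. It turned LSS with siZIP7_2 to 0.0318, SREBF2 with siZIP7_1 to 0.0179, and the siRNA difference of FDFT1 to 0.0381, of CYP51A1 to 4.05e-05 and of LBR to 0.044. At least 10 counts in every library turned SREBF2 to 0.0146, and the difference of FDFT1 to 0.00913 and of LBR to 0.0147. No low-count filter turned the difference of ABCG1 to -0.0397. Leaving out a library gave, with siZIP7_1, -0.0672 to 0.0128 for PMVK, -0.0607 to 0.0181 for EBP, -0.0255 to 0.0233 for SREBF2, -0.0395 to 0.057 for SOAT1 and -0.00631 to 0.0672 for MYLIP. It gave -0.0443 to 0.127 for CYP51A1 with siZIP7_2, and differences of -0.0934 to 0.0435 for LBR and -0.216 to 0.373 for ABCG1. None of these values passed the threshold. FDPS with siZIP7_2 passed it with at least 10 counts in every library (0.127) or upper-quartile scaling (0.159), and LSS with no low-count filter (-0.127). With no low-count filter, calls were lost for SEC23B and NPLOC4 with siZIP7_2 (0.112 and 0.0976), LBR with siZIP7_2 (0.109) and the difference of DHCR7 (0.114). The difference of IDI1 was lost with DESeq2, RLE or upper-quartile scaling or at least 10 counts (-0.124, -0.109, -0.0624 and -0.0921). The cause was not tested. Samples with the same replicate number did not deviate together (mean correlation 0.0115, -0.0493 to 0.0754 over 9 pairs), and the main fit did not pair them. The correlations cannot show whether the numbers mark shared cultures. With a replicate block, 11927, 13080 and 13242 genes passed the threshold in the 3 comparisons, against 11851, 13038 and 13187 without it, and the block left the members at 23, 27 and 25 calls.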
